A study of Mus musculus with 6 samples.

Results

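The genes described here are 44 cell cycle and proliferation genes in lung group 2 innate lymphoid cells (ILC2s) with and without a floxed allele of Piezo1. They were named as a list, by symbol, and were chosen with earlier results of these data known. All 44 are among the 18057 genes of the deposited table, and all 44 had enough reads to be tested, with 112 to 43334 estimated counts in a library. By their textbook roles they were split into 26 genes of the G1 phase and the G1/S transition and 18 genes of the G2 phase and mitosis.

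A cell that enters the cycle first raises the D-type cyclins, which pair with the kinases Cdk4 and Cdk6 and phosphorylate the retinoblastoma protein. This frees E2F transcription factors, which switch on the cyclin E genes, the replication licensing factors and the enzymes that make deoxynucleotides. Later in the cycle a further set of genes, driven by B-Myb and Foxm1, supplies cyclins A and B, the mitotic kinases, the spindle checkpoint and the anaphase-promoting complex. ILC2s are tissue lymphocytes that divide in response to IL-33 together with cytokines of the common gamma chain such as IL-2 and IL-7.

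RNA was sequenced from ILC2s sorted from mouse lung. Mice of both groups had received 3 intranasal injections of 1 µg recombinant mouse IL-33, and the sorted cells of both groups then spent 24 h in culture in 10 ng/mL of each of the cytokines IL-2 and IL-7. The control group (3 libraries) has the genotype label Il7rcre, although its titles call it WT, and the Piezo1_KO group (3 libraries) has the label Il7rcrePiezo1flx. The labels give no strain, age or sex, and leave unsaid whether the 3 libraries of a group are 3 animals. The p-values therefore speak of the spread among these 6 libraries, which may be technical. The Il7r-Cre driver acts in cells that express Il7r or descend from such cells, which includes other lymphocytes, and deletion is therefore not restricted to the sorted cells. The comparison asks whether transcripts of the division programme differ in cultured ILC2s of the genotype labelled as a knockout of Piezo1, a mechanically gated channel.

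The libraries held 13059046 to 33459904 estimated counts. Piezo1 itself lay between 160 and 278 CPM (counts per library size, scaled between libraries by TMM) in control and between 109 and 150 CPM in Piezo1_KO, with no overlap, and did not pass an adjusted p of 0.05 (0.112, by the quasi-likelihood test of edgeR, adjusted by Benjamini and Hochberg over 14149 genes). Its count covers the whole gene, so deletion of the floxed exons was not measured. All 14 ILC2 markers checked were in the table, with a summed level of 11991 to 12875 CPM in control and 13820 to 14776 CPM in Piezo1_KO, mainly from Il5 (means of 4038 and 5159 CPM) and Il2ra (3469 and 4318 CPM). The lineage factor Gata3 went the other way, with means of 986 and 737 CPM, as did Rora (192 and 161 CPM) and the IL-33 receptor Il1rl1 (904 and 788 CPM), and none of these 5 passed. Among the 14, Il17rb rose (39.8 to 66.4 CPM on average), and Icos (358 to 234 CPM) and Il7r, which encodes the IL-7 receptor and drives the Cre (66.8 to 32.8 CPM), fell. The T cell genes Cd4, Cd8a and Cd8b1 were not in the table. Erythroid markers (3 of 6 in the table, mainly Hba-a1) summed to 3.70 to 5.25 CPM in control and 26.7 to 31.3 CPM in Piezo1_KO, B cell markers (3 of 7, mainly Ighm and Cd79b) to 34.4 to 40.3 and 80.2 to 104 CPM, and T cell markers (7 of 10, mainly Trbc2) to 162 to 203 and 124 to 155 CPM. Markers of NK cells and ILC1s (3 of 7, mainly Gzma) summed to 63.9 to 87.3 and 40.2 to 59.8 CPM, and those of granulocytes and mast cells (4 of 10, mainly Kit) to 173 to 239 and 126 to 138 CPM. Markers of macrophages and dendritic cells, epithelium and stroma summed to at most 20.9 CPM in any library. The stromal markers (2 of 8, mainly Pdgfrb) summed to 0.675 to 1.56 CPM in control and 5.47 to 8.03 CPM in Piezo1_KO. Outside the ILC2 list, Hba-a1, Hba-a2, Ighm and Pdgfrb passed as higher in Piezo1_KO, and Cd28, Tbx21 and Cma1 as lower. The part of such other cells in the results on cell cycle genes was not tested. Control replicates 2 and 3 had the lowest limma-voom quality weights, 0.352 and 0.489, where the remaining 4 libraries had 1.03 to 1.91.

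The cell cycle programme was expressed in both genotypes, and its level differed little between them. The 44 genes together took up 15427, 15298 and 15381 CPM in control and 14526, 14711 and 14578 CPM in Piezo1_KO (replicates 1, 2 and 3 in turn, here and throughout). The means were 15369 ± 65.0 and 14605 ± 95.2 CPM (SD, n = 3), a difference of -4.97%, and the groups did not overlap. The G1/S genes summed to 8606, 8894 and 8450 CPM in control and 8225, 8142 and 7993 CPM in Piezo1_KO, again without overlap. The G2/M genes summed to 6821, 6405 and 6931 CPM in control and 6301, 6569 and 6585 CPM in Piezo1_KO, and here the groups overlapped. In bulk RNA a smaller share of dividing cells and less of these transcripts per cell cannot be told apart.

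Gene by gene, Myb rose and Tcf19 fell in Piezo1_KO at an adjusted p under 0.05, and the other 42 did not pass. These 2 calls among 44 stand beside 1.51% of all 14149 genes tested (1.0% higher and 0.509% lower). In the unadjusted test 12 of the 44 had p under 0.05, 2 higher and 10 lower, where 13.2% of all genes did (6.3% higher and 6.91% lower). Of the 10 lower genes 8 were G1/S genes, and the other 2, Aurkb and Plk1, were G2/M genes. The groups did not overlap for 19 of the 44, which were 3 higher and 16 lower in every Piezo1_KO library, beside 20.6% of all genes (10.1% higher and 10.5% lower). The fitted log2 fold change was below 0 for 32 of the 44, where 47.0% of all genes were below 0. The median was -0.12 over the 44 genes, -0.15 over the G1/S genes and -0.06 over the G2/M genes, and 0.02 over all genes tested. The 95% interval of the fold change lay within 1.5-fold in either direction for 38 of the 44 genes and for all 18 G2/M genes, which 47.8% of all genes tested reached. The 6 genes whose intervals reached past 1.5-fold were Myb, Tcf19, E2f1, E2f2, Ccnd3 and Cdkn1b. The shares over all genes do not compare like with like. The 44 genes had a median level of 264 CPM and a median SE of 0.098, against 20.15 CPM and 0.17 over all genes tested. The part of level and precision in these shares was not tested.

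**Figure D1:**
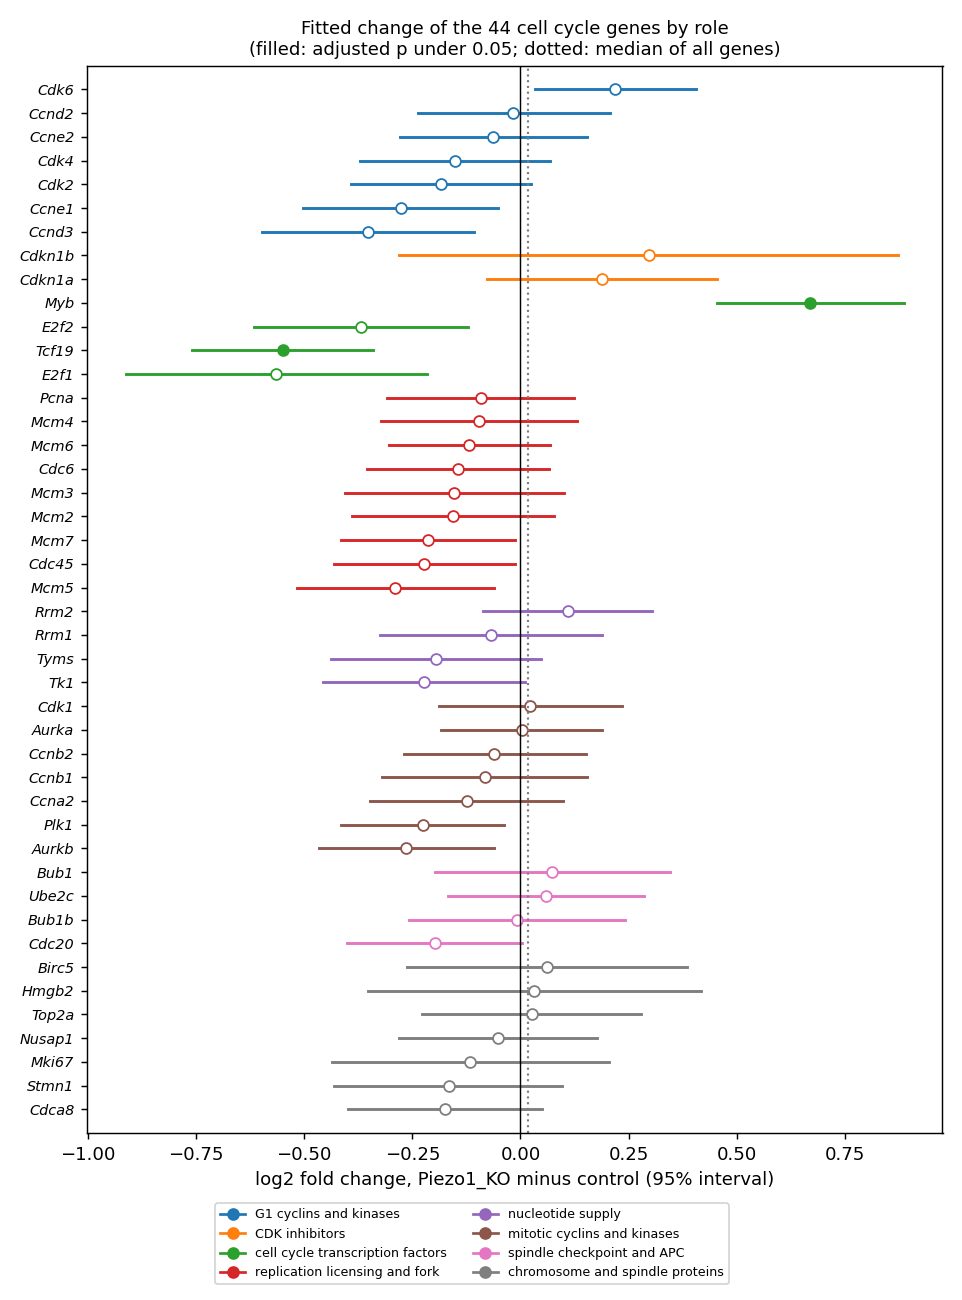
Fitted log2 fold change (Piezo1_KO minus control) of the 44 genes, with 95% intervals, grouped and coloured by role. Filled points, Myb and Tcf19, passed an adjusted p of 0.05, and the dotted line is the median of all genes tested, 0.02. The 9 genes of replication licensing and the fork all lie left of 0, and the mitotic groups scatter on either side of it.

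The calls on Myb and Tcf19 depended on which library was left out. Both passed without control replicate 2 (adjusted p = 0.0219 for Myb and 0.0311 for Tcf19, edgeR) and without control replicate 3 (0.0259 and 0.0394). These were the libraries with the lowest quality weights. Neither passed when control replicate 1 or any Piezo1_KO replicate was left out, where the adjusted p lay between 0.0788 and 0.101 for Myb and between 0.0888 and 0.182 for Tcf19, with log2 fold changes of 0.61 to 0.72 and -0.61 to -0.53.

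Many cell cycle genes are controlled through short promoter elements, and 4 promoters are shown because they carry the elements of both arms of the programme: those of Myb and Tcf19, which passed the threshold, of Mcm5, the licensing gene with the largest difference, and of Cdc20, a mitotic gene. Each line gives the 250 bases before the RefSeq start site on the gene's own strand, in GRCm38.p6 coordinates. Capitals mark E2F letters (any of the word TTTGGCG, the word TTTCGCG, the word TTTCCCG and the word TTTGCCG), the CCAAT box of NF-Y and the cell cycle homology region (CHR, TTTGAA), each searched on both strands. The last 9 bases of the Cdc20 stretch lie inside the gene as annotated by GENCODE, and the Mcm5 stretch ends 60 bases before the GENCODE start.
Myb, chr10:21160985-21161234, minus strand: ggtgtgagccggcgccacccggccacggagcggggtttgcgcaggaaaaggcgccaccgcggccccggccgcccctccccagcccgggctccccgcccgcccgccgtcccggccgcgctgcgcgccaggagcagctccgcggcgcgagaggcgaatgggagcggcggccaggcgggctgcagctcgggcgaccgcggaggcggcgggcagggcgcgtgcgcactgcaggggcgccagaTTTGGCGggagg
Tcf19, chr17:35516825-35517074, minus strand: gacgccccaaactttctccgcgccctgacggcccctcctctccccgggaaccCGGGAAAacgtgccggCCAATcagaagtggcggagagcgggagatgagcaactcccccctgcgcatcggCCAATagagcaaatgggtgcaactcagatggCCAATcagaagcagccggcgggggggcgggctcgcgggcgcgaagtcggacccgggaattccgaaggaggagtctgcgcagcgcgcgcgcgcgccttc
Mcm5, chr8:75109259-75109508, plus strand: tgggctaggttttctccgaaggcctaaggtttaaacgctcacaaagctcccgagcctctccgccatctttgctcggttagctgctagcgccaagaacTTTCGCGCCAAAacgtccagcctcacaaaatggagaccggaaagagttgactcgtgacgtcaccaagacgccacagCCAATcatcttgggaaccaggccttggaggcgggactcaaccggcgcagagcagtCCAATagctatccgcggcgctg
Cdc20, chr4:118437344-118437593, minus strand: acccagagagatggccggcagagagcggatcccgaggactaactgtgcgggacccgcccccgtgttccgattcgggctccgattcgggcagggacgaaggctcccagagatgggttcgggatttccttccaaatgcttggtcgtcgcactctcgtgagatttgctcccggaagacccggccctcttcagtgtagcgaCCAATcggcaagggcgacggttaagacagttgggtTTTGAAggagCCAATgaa
Counted back from the base before the start as -1, the Myb stretch has 1 E2F match, at -12 to -6, and no CCAAT or CHR letters. In Tcf19 the E2F letters lie on the opposite strand at -198 to -192, with CCAAT beginning at -182, -129 and -98. Mcm5 has a pair of E2F matches on opposite strands, at -153 to -147 and -148 to -142, which overlap by their last and first letters, and CCAAT beginning at -77 and -22. Cdc20 has CHR at -18 to -13, with CCAAT beginning at -53 and -8, and no E2F letters.

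RefSeq windows from 250 bases before to 50 bases after a start were matched for 38 of the 44 genes, as 27 windows of 23 G1/S genes and 15 windows of 15 G2/M genes. E2F letters were in 9 G1/S windows (33.3%) and 4 G2/M windows (26.7%), and in 6.7% of all 32851 windows of that length. CHR letters were in 3 G1/S windows (11.1%) and 11 G2/M windows (73.3%), beside 17.9% of all windows. CCAAT was in 16 G1/S windows (59.3%) and 13 G2/M windows (86.7%), beside 37.4%. A match describes letters in the window and does not show that a factor binds there.

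**Figure D2:**
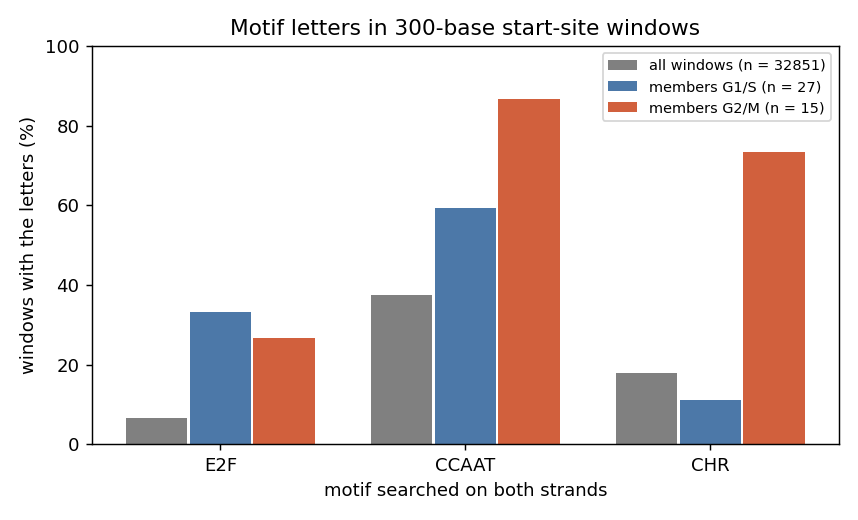
Share of 300-base start-site windows (percent) that hold E2F, CCAAT or CHR letters on either strand, for all 32851 RefSeq windows and for the windows of the G1/S and G2/M genes. CHR letters are in 73.3% of the G2/M windows and 11.1% of the G1/S windows.

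The G1 cyclins and kinases start the cycle. Ccnd3, the D-type cyclin of developing and activated lymphocytes, was at 494, 595 and 537 CPM in control and 461, 427 and 386 CPM in Piezo1_KO, lower in every Piezo1_KO library, with a log2 fold change of -0.35 ± 0.11 (SE) and an adjusted p of 0.191 (edgeR). Its partner kinase Cdk6 was at 261, 257 and 254 CPM in control and 311, 301 and 287 CPM in Piezo1_KO. Cdk6 was thus the only one of the 7 G1 cyclins and kinases to lie higher in every Piezo1_KO library (log2 fold change 0.22 ± 0.08, adjusted p = 0.290, edgeR). Ccne1, the cyclin E that activates Cdk2 at the start of S phase, was at 70.2, 73.6 and 75.5 CPM in control and 55.6, 66.2 and 59.1 CPM in Piezo1_KO (-0.28 ± 0.10, adjusted p = 0.269, edgeR). Cdk2 was at 125, 131 and 140 CPM in control and 109, 121 and 117 CPM in Piezo1_KO (-0.18 ± 0.09, adjusted p = 0.446, edgeR). Both were lower in every Piezo1_KO library, and neither passed. Of all genes tested, 10.5% were lower and 10.1% higher without overlap. Ccnd2, Ccne2 and Cdk4 overlapped between the groups, with log2 fold changes of -0.02, -0.06 and -0.15.

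Ratios between close relatives, which were not tested, were as follows. The ratio of Ccnd3 to Ccnd2 was 1.08, 1.47 and 1.11 in control and 1.04, 0.92 and 0.91 in Piezo1_KO, with means of 1.22 ± 0.218 and 0.958 ± 0.0745 (SD, n = 3). The ratio of Cdk6 to Cdk4 was 0.767, 0.680 and 0.647 in control and 0.948, 0.840 and 0.913 in Piezo1_KO, with means of 0.698 ± 0.0619 and 0.900 ± 0.0551. Neither ratio overlapped between the groups, whereas the ratios of Ccne1 to Ccne2 and of E2f1 to E2f2 did. Per kilobase of exon the D-type cyclins were at similar levels in control (61.7 CPM per kb for Ccnd3 and 47.6 for Ccnd2), and Cdk4 stood above Cdk6 (114 against 18.4 CPM per kb). In CPM the control means were 370 for Cdk4 and 257 for Cdk6, with merged exon lengths of 3249 and 13989 bases. Ccnd1 lay at 0.15 to 0.37 CPM in every library, too low to be tested.

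The inhibitors Cdkn1a (p21) and Cdkn1b (p27) bind cyclin and kinase pairs and hold cells in G1. Cdkn1a was at 210, 191 and 244 CPM in control and 261, 249 and 224 CPM in Piezo1_KO, with overlap (log2 fold change 0.19 ± 0.12, adjusted p = 0.551, edgeR). This was 0.09 without control replicate 2 and 0.29 without control replicate 3. Cdkn1b was the lowest of the 44 genes in CPM and per kilobase of exon, at 8.50, 12.6 and 8.40 CPM in control and 9.93, 10.3 and 16.2 CPM in Piezo1_KO (0.30 ± 0.25, adjusted p = 0.686, edgeR). Its highest value was 1 library, Piezo1_KO replicate 3, and without that library its log2 fold change was 0.04, against 0.51 without control replicate 2. Per kilobase of exon, p21 stood well above p27 in both groups, at 60.5 against 2.16 CPM per kb in control and 68.9 against 2.67 in Piezo1_KO.

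The 4 transcription factors were the only one of the 8 role groups in which no gene overlapped between the genotypes. Over all genes tested 20.6% did not overlap, and 2 of these 4 factors did not pass the threshold. Myb, the c-Myb factor of lymphoid progenitors and proliferating haematopoietic cells, was at 73.7, 67.0 and 67.6 CPM in control and 117, 102 and 112 CPM in Piezo1_KO. It rose 1.59-fold (log2 fold change 0.67 ± 0.09, 95% interval 0.45 to 0.89, adjusted p = 0.0169, edgeR), and every Piezo1_KO library lay above every control library. Exons of Myb overlap those of the antisense gene Gm26577, and since strand use in counting is not given, their reads cannot be told apart. Tcf19, a nuclear factor whose transcript climbs at the G1/S transition, was at 108, 120 and 126 CPM in control and 81.1, 82.1 and 78.5 CPM in Piezo1_KO. It fell by 0.55 ± 0.09 on the log2 scale (95% interval -0.76 to -0.34, adjusted p = 0.0290, edgeR), with the 3 Piezo1_KO libraries within 4 CPM of each other.

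E2f1 and E2f2, activator E2Fs that drive S phase genes, were lower in every Piezo1_KO library without passing the threshold. E2f1 was at 79.0, 108 and 72.3 CPM in control and 61.3, 57.2 and 57.4 CPM in Piezo1_KO (log2 fold change -0.57 ± 0.15, adjusted p = 0.141, edgeR). Control replicate 2 was the highest, and without it the log2 fold change was -0.39 and the adjusted p 0.111. E2f1 passed in DESeq2 (adjusted p = 0.0237), which called 4.1% of all genes tested, and in limma-voom with quality weights (0.0449), which called 3.1%, and in none of the other 9 alternatives, where the adjusted p was 0.0592 to 0.505. E2f2 was at 80.8, 76.1 and 76.9 CPM in control and 67.7, 53.5 and 59.9 CPM in Piezo1_KO (-0.37 ± 0.11, adjusted p = 0.176, edgeR).

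**Figure D3:**
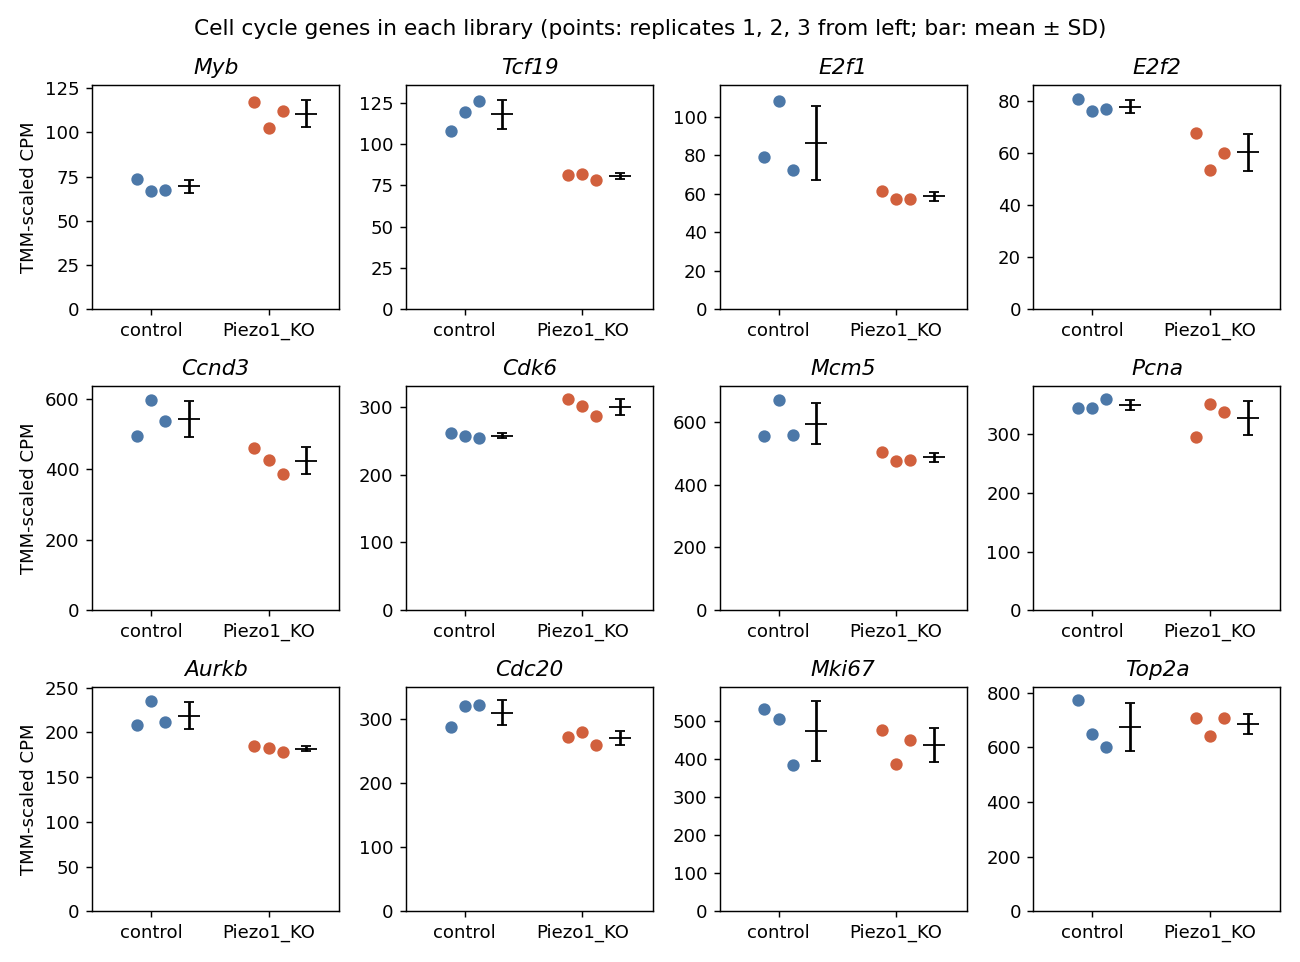
TMM-scaled CPM of 12 genes in each library, with control and Piezo1_KO replicates 1 to 3 from left to right and the mean ± SD (n = 3) as bars. Each vertical axis starts at 0. Myb and Cdk6 lie higher in all Piezo1_KO libraries, Tcf19, E2f1, E2f2, Ccnd3, Mcm5, Aurkb and Cdc20 lie lower, and Pcna, Mki67 and Top2a overlap.

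The 9 genes of replication licensing and the fork supply the MCM helicase, factors that load or activate it, and the clamp Pcna. None passed, and all 9 had a log2 fold change below 0, between -0.29 and -0.09, with a median of -0.15 beside 0.02 over all genes. Their summed level was 3583 to 4147 CPM in control and 3389 to 3526 CPM in Piezo1_KO. Mcm5, an MCM helicase subunit whose promoter with paired E2F letters is printed above, was at 556, 670 and 558 CPM in control and 504, 477 and 480 CPM in Piezo1_KO (log2 fold change -0.29 ± 0.10, adjusted p = 0.254, edgeR). Mcm7 was at 386, 419 and 364 CPM in control and 343, 336 and 330 CPM in Piezo1_KO (-0.21 ± 0.09). Its exons hold the microRNAs Mir25 and Mir93, whose reads a gene-level count cannot set apart, and overlap those of the antisense genes Ap4m1 and Cops6. Mcm6 was at 672, 656 and 608 CPM in control and 608, 586 and 591 CPM in Piezo1_KO (-0.12 ± 0.08), so that its highest Piezo1_KO library lay just under its lowest control library. Cdc45, which joins the MCM ring to form the active helicase, was at 113, 126 and 129 CPM in control and 103, 109 and 104 CPM in Piezo1_KO (-0.22 ± 0.09). These 4 genes did not overlap between the groups, where 10.5% of all genes tested were lower without overlap. Mcm2, Mcm3, Mcm4, Cdc6 and Pcna overlapped. Pcna, the sliding clamp of the replicative polymerases, was at 344, 345 and 360 CPM in control and 296, 351 and 337 CPM in Piezo1_KO (-0.09 ± 0.09, adjusted p = 0.744, edgeR).

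The 6 MCM subunits form 1 ring in equal numbers, and per kilobase of exon their transcripts in control ranged from 77.6 CPM per kb for Mcm2 to 155 for Mcm3. Mcm7 (88.0), Mcm4 (125), Mcm6 (138) and Mcm5 (149) lay between. In CPM Mcm2 and Mcm3 were close, with control means of 540 and 583. Their merged exon lengths were 6956 and 3752 bases. The span from Mcm2 to Mcm3 per kilobase therefore rests largely on those lengths, which need not be those of the transcripts made. Control replicate 2 had the highest level of Mcm2, Mcm3, Mcm4, Mcm5 and Mcm7 among all libraries, and Mcm6 was highest in control replicate 1.

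Of the genes of nucleotide supply, none of which passed, Tyms (thymidylate synthase) and Tk1 (thymidine kinase) were lower in every Piezo1_KO library and Rrm2 was higher. Over all genes tested 10.5% were lower and 10.1% higher without overlap. Tyms was at 162, 154 and 185 CPM in control and 133, 152 and 152 CPM in Piezo1_KO (log2 fold change -0.20 ± 0.11, adjusted p = 0.492, edgeR). Tk1 was at 118, 119 and 142 CPM in control and 104, 112 and 109 CPM in Piezo1_KO (-0.22 ± 0.10, adjusted p = 0.404, edgeR). Without control replicate 3, the highest library for both, the log2 fold changes were -0.12 for Tyms and -0.13 for Tk1. Rrm2, the S phase subunit of ribonucleotide reductase, was the highest of the 44 genes in CPM and per kilobase of exon, at 1442, 1247 and 1430 CPM in control and 1464, 1497 and 1480 CPM in Piezo1_KO (0.11 ± 0.09, adjusted p = 0.652, edgeR). The low control value was that of replicate 2, and without it the log2 fold change was 0.03. Rrm1, the other subunit of the enzyme, overlapped between the groups (-0.07 ± 0.11). Per kilobase of exon Rrm2 stood at 495 CPM per kb in control and 534 in Piezo1_KO, and Rrm1 at 60.0 in control. The gap was smaller in CPM, with control means of 1373 for Rrm2 and 661 for Rrm1. Their merged exon lengths were 2771 and 11012 bases, which need not be those of the transcripts made.

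**Figure D4:**
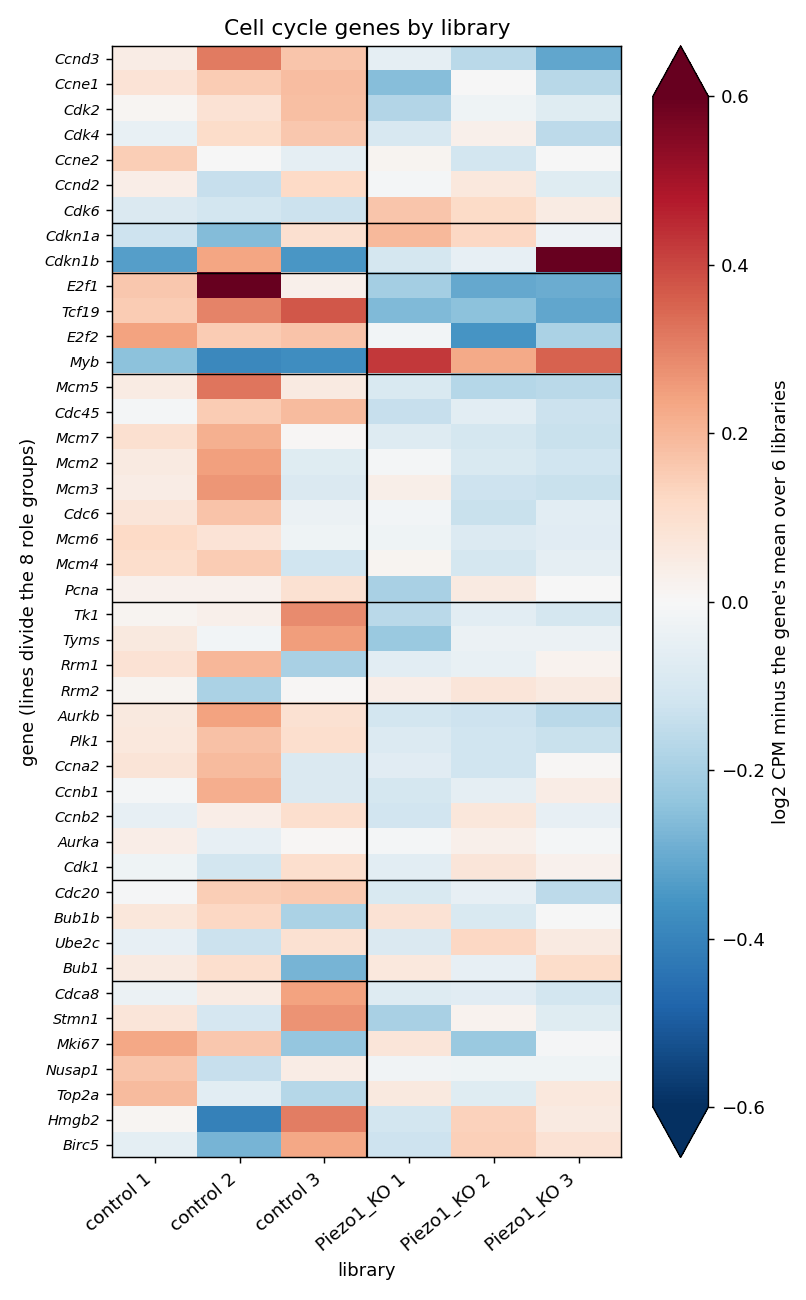
Log2 CPM of each of the 44 genes in each library minus the gene's mean over the 6 libraries, from blue (low) to red (high), with lines between the 8 role groups and between the genotypes. Colours stop at 0.6 in either direction. Among the lower rows Hmgb2, Birc5 and Mki67 differ more among control libraries than between the groups.

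The mitotic cyclins and kinases carry cells through G2 and into mitosis, and none of the 7 passed. Aurkb, the kinase of the chromosomal passenger complex, was at 208, 236 and 212 CPM in control and 185, 183 and 178 CPM in Piezo1_KO (log2 fold change -0.26 ± 0.09, adjusted p = 0.240, edgeR). Plk1, the Polo-like kinase of mitotic entry, was at 254, 275 and 261 CPM in control and 230, 224 and 221 CPM in Piezo1_KO (-0.23 ± 0.08, adjusted p = 0.278, edgeR). Both were lower in every Piezo1_KO library, as were 10.5% of all genes tested. The remaining 5 overlapped, among them the central kinase Cdk1, at 244, 230 and 267 CPM in control and 238, 262 and 253 CPM in Piezo1_KO (0.02 ± 0.09, adjusted p = 0.949, edgeR). Ccna2, Ccnb1 and Ccnb2, the cyclins that bind Cdk1, had log2 fold changes of -0.12, -0.08 and -0.06, and Aurka, the spindle pole kinase, was the closest to 0 of all 44 genes (0.00 ± 0.08).

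The spindle checkpoint and the anaphase-promoting complex time the separation of chromosomes. Cdc20, the activator of the complex, whose promoter with CHR and CCAAT letters is printed above, was at 288, 321 and 323 CPM in control and 272, 280 and 260 CPM in Piezo1_KO. It was lower in every Piezo1_KO library (log2 fold change -0.20 ± 0.09, adjusted p = 0.391, edgeR). Bub1, a checkpoint kinase, was at 133, 137 and 105 CPM in control and 134, 124 and 138 CPM in Piezo1_KO. Its log2 fold change of 0.07 ± 0.12 (adjusted p = 0.849, edgeR) turned to -0.04 without control replicate 3, the lowest library. Bub1b and Ube2c, the checkpoint protein BubR1 and the ubiquitin-conjugating enzyme of the complex, overlapped, with log2 fold changes of -0.01 and 0.06.

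Among the proteins of chromosomes and spindle, the usual proliferation markers did not separate the genotypes. Mki67, the Ki-67 antigen, was at 532, 507 and 385 CPM in control and 477, 388 and 450 CPM in Piezo1_KO (log2 fold change -0.12 ± 0.14, 95% interval -0.44 to 0.20, adjusted p = 0.784, edgeR). Top2a, the topoisomerase that untangles replicated chromosomes, was at 772, 649 and 601 CPM in control and 706, 644 and 709 CPM in Piezo1_KO (0.03 ± 0.11, 95% interval -0.23 to 0.28, adjusted p = 0.954, edgeR). In both genes the span of the control libraries took in all Piezo1_KO libraries. Leaving out 1 library moved the log2 fold change of Mki67 between -0.25 (without control replicate 3) and -0.03 (without control replicate 1). Cdca8 (borealin), a partner of Aurkb, was at 166, 177 and 202 CPM in control and 162, 163 and 158 CPM in Piezo1_KO, lower in every Piezo1_KO library (-0.17 ± 0.10, adjusted p = 0.512, edgeR), with -0.09 without control replicate 3. Stmn1, which destabilises microtubules, was at 552, 490 and 633 CPM in control and 459, 533 and 499 CPM in Piezo1_KO, with overlap (-0.17 ± 0.12; -0.27 without control replicate 2 and -0.07 without control replicate 3). Hmgb2, an abundant chromatin protein of dividing cells, had the widest spread of the group, at 1285, 961 and 1573 CPM in control and 1180, 1402 and 1322 CPM in Piezo1_KO (0.03 ± 0.17). Birc5 (survivin) and Nusap1, the other members of the group, also overlapped, with log2 fold changes of 0.06 and -0.05.

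The control libraries differed among themselves in which cell cycle genes they favoured. Control replicate 3 had the highest level of any library for 16 of the 44 genes and the lowest for 8, and control replicate 2 the highest for 14 and the lowest for 10. Control replicate 1 was highest for 7 genes and lowest for none. Control replicate 2 was high for the Mcm genes, E2f1 and Ccnd3 and low for Hmgb2, Birc5 and Rrm2, and control replicate 3 was high for Hmgb2, Birc5 and Tk1 and low for Mki67 and Bub1. The median coefficient of variation of the 44 genes was 9.19% in control and 4.66% in Piezo1_KO, beside 16.2% and 9.88% over all genes tested. The G2/M median moved from -0.06 to -0.01 when control replicate 1 was left out, and to -0.07 without control replicate 2.

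Beyond the 44, 6 further lists of the pathway were counted, with 183 tested genes of which 2 were higher, 1 lower and 180 not called, a share close to the 1.51% of all genes tested. Among 52 other S phase genes and 63 other mitotic genes none passed in edgeR, while 9 and 6 had an unadjusted p under 0.05, all of them lower in Piezo1_KO, beside 6.91% of all genes tested that were lower at that p. Their medians were -0.13 and -0.09. Pold1, the catalytic subunit of DNA polymerase delta, was at 256, 308 and 268 CPM in control and 212, 178 and 180 CPM in Piezo1_KO (log2 fold change -0.55 ± 0.11, adjusted p = 0.0643, edgeR), and it passed in DESeq2 (0.00127) and limma-voom (0.0234). Foxm1, the factor that drives G2/M genes, was at 125, 146 and 122 CPM in control and 101, 89.9 and 99.6 CPM in Piezo1_KO (-0.44 ± 0.10, adjusted p = 0.104, edgeR), and also passed in DESeq2 (0.0130) and limma-voom (0.0438). Both were lower in every Piezo1_KO library, as were 10.5% of all genes tested.

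Of 23 tested genes of the retinoblastoma, E2F and DREAM group, Cdkn2c fell (0.509% of all genes tested did) and the others did not pass. Cdkn2c (p18), an inhibitor of Cdk4 and Cdk6, was at 75.5, 73.5 and 77.2 CPM in control and 48.0, 43.5 and 47.7 CPM in Piezo1_KO, and fell by 0.70 ± 0.09 on the log2 scale (adjusted p = 0.0108, edgeR). Of 20 targets of p53, Pmaip1 and Sesn1 rose (1.0% of all genes tested did) and none fell, while 9 of the 20 had a log2 fold change below 0 and the median was 0.05. Pmaip1 (Noxa), a BH3-only death protein, was at 47.2, 38.5 and 41.6 CPM in control and 74.8, 78.2 and 83.6 CPM in Piezo1_KO, a 1.86-fold rise (adjusted p = 0.00859, edgeR). Sesn1, a stress-induced inhibitor of mTORC1 signalling, was at 38.1, 36.7 and 33.6 CPM in control and 51.5, 55.3 and 56.8 CPM in Piezo1_KO, a 1.51-fold rise (adjusted p = 0.0275, edgeR). The groups did not overlap for any of these 3 genes, beside 20.6% of all genes tested. Cdkn2c and Sesn1 passed in 6 of 11 alternatives and Pmaip1 in 7, and none of the 3 passed when any 1 Piezo1_KO library was left out.

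None of 15 genes of lymphocyte quiescence and none of 10 genes of the MYC network passed, with medians of 0.04 and 0.11 and 7 genes (3 higher, 4 lower) and 6 genes (3 higher, 3 lower) at an unadjusted p under 0.05, which 13.2% of all genes reached. Slfn2, a Schlafen gene of quiescence, had the smallest p of its list, at 90.8, 73.4 and 94.2 CPM in control and 54.4, 61.8 and 60.5 CPM in Piezo1_KO (log2 fold change -0.55 ± 0.12, adjusted p = 0.0783, edgeR). It passed in DESeq2 (0.00589), in limma-voom (0.0149) and without control replicate 2 (0.0128). Mxd3, a MAX partner expressed in dividing cells, had the smallest p of the MYC list, at 42.3, 60.9 and 50.2 CPM in control and 32.2, 33.5 and 33.4 CPM in Piezo1_KO (-0.63 ± 0.14, adjusted p = 0.0809, edgeR). It passed in DESeq2 (0.00436). Both were lower in every Piezo1_KO library, as were 10.5% of all genes tested.

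**Figure D5:**
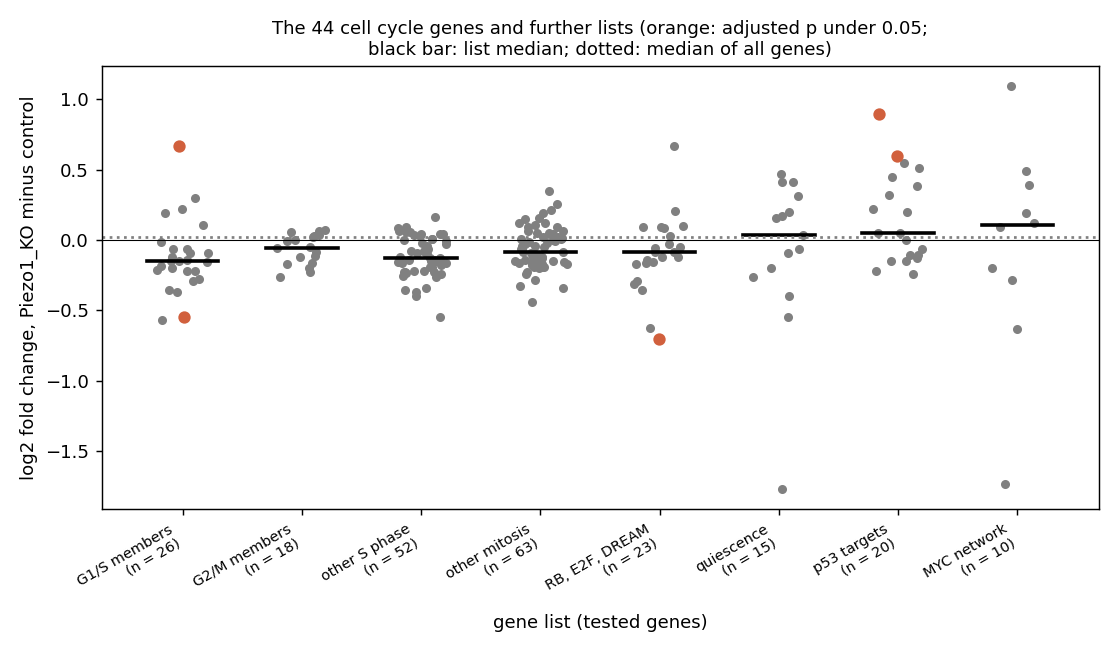
Fitted log2 fold change (Piezo1_KO minus control) of each tested gene in the 2 groups of cell cycle genes and in 6 further lists. Black bars are list medians, the dotted line is the median of all genes tested, and orange points passed an adjusted p of 0.05. The passing genes are Myb and Tcf19 among the G1/S genes, Cdkn2c in the retinoblastoma, E2F and DREAM list, and Pmaip1 and Sesn1 among p53 targets.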

How the data were processed

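RNA from sorted, cultured lung ILC2s was made into libraries from 10 ng of input, per the labels. The table deposited by the authors holds estimated counts per gene, of which 37.9% to 47.4% per library were not whole numbers (tolerance 1e-09). Reads were placed on mm10, per the submitters' processing notes. Aligner, counting tool, annotation and strand use: not given in the sources used here. By GENCODE, 19 of the 44 genes share exon bases with another annotated gene, 17 of them with an antisense gene.

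Estimated counts were rounded. Genes were kept by filterByExpr (14149 of 18057), scaled by TMM and tested with glmQLFTest in edgeR 4.0.16 (R 4.3.3), two-sided, 3 libraries against 3, with no covariates. P-values were adjusted over all genes tested by Benjamini-Hochberg, with a threshold of 0.05. The standard error is the log2 fold change divided by the square root of F. CPM per kilobase uses merged exon lengths of GENCODE M21 (GRCm38, which is mm10), matched for 44 of 44 genes. Merged exons of all annotated transcripts can be longer than the transcript made, so levels per kilobase of different genes compare only roughly. Promoter windows came from RefSeq. The fit was tested on simulated counts. Alternatives were the RLE scaling, a fit without the filter, the replicate number as a block, DESeq2 1.42.0, limma-voom (3.58.1) with quality weights, and leaving out each library.

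Values in every library were given for genes past the threshold, genes whose groups did not overlap, the 2 smallest p in each role, 7 set genes (Mki67, Top2a, Cdk1, Pcna, Cdkn1a, Cdkn1b and E2f1) and, in each further list, up to 5 called genes or the smallest p. Hmgb2, Stmn1, Ccnd1 and the ratios were added after their values were seen. The 44 genes and all lists were chosen with earlier results of these data known.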

Additional observations from a re-analysis of the deposited data

How the results depend on the processing

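Genes past the threshold over the whole table numbered 214, and 582 in DESeq2, 439 in limma-voom and 33 to 297 when 1 library was left out (33 without Piezo1_KO replicate 2, 297 without control replicate 2). The 44 cell cycle genes gave 2 calls, 3 in DESeq2 and in limma-voom, and 0 to 2 with a library left out. The 6 further lists gave 3 calls, 10 in DESeq2, 8 in limma-voom and 0 to 5 with a library left out. The loss of control replicate 1 or of any Piezo1_KO library took more calls than that of control replicate 2 or 3. The cause was not tested. Leaving out libraries moved the median log2 fold change between -0.13 and -0.11 for the 44 genes, between -0.17 and -0.12 for the G1/S genes and between -0.074 and -0.007 for the G2/M genes. The RLE scaling, and likewise the fit without the filter, left 2 and 3 calls. Over 11 alternatives and the 34 genes described by library, 340 results kept their side of the threshold, 24 calls were lost and 10 gained, and 3 of the 27 cell cycle genes among them (Bub1, Cdk1 and Top2a) changed sign in some alternative, as did 11 of all 44. Each of the 44 had at least 112 estimated counts in every library.

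With the replicate block, 52 genes passed over the whole table, 0 of the 44 and 0 of the further lists. Replicate numbers are shared between the groups. Libraries of the same number did not deviate together (correlations of 0.01, -0.26 and -0.02), and 0 of 6 libraries correlated best with its own number. The check showed no pairing by number, but with 3 libraries per group it cannot exclude one.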

Other observations

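Cdt1, the factor that loads the MCM ring at origins and no member of the 44, lies on chromosome 8 (122568015 to 122573554 in mm10, plus strand), 16686 bases from Piezo1 (122481698 to 122551329). It was at 97.6, 107 and 104 CPM in control replicates 1 to 3 and 94.7, 72.1 and 71.9 CPM in Piezo1_KO replicates 1 to 3, lower in every Piezo1_KO library, and the log2 fold change was -0.37 ± 0.13 (SE), with an edgeR adjusted p of 0.245. It was chosen for its position after its values were seen. Of the 44 genes, Hmgb2 and Mcm5 lie on the same chromosome, 64965699 and 47353259 bases from Piezo1.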
